A study of Mus musculus with 21 samples.

Results

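Cells that carry the surface receptor Notch1 were compared between mouse retinas of postnatal day 14 (P14) and postnatal day 7 (P7). The members were chosen by title: the 3 arrays named as Notch1+ cells at P14 and the 3 named as Notch1+ cells at P7, which make up 6 of the 21 arrays of the series. All animals were C57BL/6 mice, and the labels name no genetic change and no treatment for either age. Both groups were made alike, by capturing retinal cells on magnetic microbeads through a biotin-conjugated monoclonal antibody to Notch1, and each sample held 200000 to 500000 cells. RNA was taken with the Absolutely RNA Nanoprep kit, amplified, labelled with biotin and read in a single channel on long oligonucleotide arrays. The study calls these cells retinal progenitor cells and its replicates independent and biological. The number of animals behind a sample is not given in the sources used here. Capture on 1 surface protein selects every cell that carries it, whatever its type.

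Notch receptors are cut after they bind a Delta or Jagged ligand on a neighbouring cell, and the freed inner part joins Rbpj in the nucleus and switches on repressors of the Hes and Hey families. In retinal progenitor cells this signal holds back neuronal differentiation, and it also favours the Müller glial fate. In the growing vessels of the retina, endothelial cells use Notch1 and Notch4 with the ligands Dll4 and Jag1, and pericytes use Notch3. Between the ages compared here the mouse retina finishes making neurons, its photoreceptors grow outer segments, and its vessels spread into deeper layers and mature.

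The comparison asks how the cells captured on Notch1 changed over the second postnatal week. Values are normalized intensities on the log2 scale, and every difference is P14 minus P7 on that scale, with its standard error (SE). The SE rests on a spread pooled over the 8 groups of the series, not on the 6 compared arrays alone. A gene was called when its p-value from limma, a linear model fitted to all genes, was under 0.05 after Benjamini-Hochberg adjustment. Of 12612 genes tested, 3548 were called, 1810 of them higher at P14 (14.4% of genes tested) and 1738 lower (13.8%). Of the called genes, 1246 were higher and 842 lower by at least 2-fold, and 72 were higher and 25 lower by at least 8-fold. Another normalization, cyclic loess, called 2265 higher and 1348 lower, a share of 62.7% higher against 51%. A fit of the 6 arrays with the replicate number as a block called 1403 higher and 987 lower. Without P14 replicate 1 the calls were 1434 higher and 1109 lower, and without P14 replicate 2 they were 1459 and 1138. The arrays of both ages did not overlap, with P14 above, for 17% of the genes tested, and with P14 below for 17.5%. Replicate 2 of both ages was scanned on the first day, and replicates 1 and 3 on the second. A difference within the first scan day thus rests on replicate 2 alone at each age, with no replication. The arrays of the second day alone gave 1100 genes called higher and 582 lower, of which 1537 were also called over all arrays. The spot software found 56.7% to 80.1% of the transcript probes on the 6 arrays, and 42 to 148 probes an array were saturated. A saturated value is capped, so a difference that rests on one is inexact. Among genes named below this touches Myt1, Slc1a3, Apoe, Dkk3, Fos, Rom1, Pgk1 and Tpi1 on 2 of the P7 arrays, and Sag, Prom1, Nrl, Snap25 and Pdpn on 1. Slc1a3, Apoe, Dkk3 and Fos were also saturated on 1 P14 array.

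P14 replicate 3 stood apart from the other P14 arrays. Across probes it correlated at 0.955 and 0.936 with P14 replicates 1 and 2, and at 0.967, 0.967 and 0.955 with P7 replicates 1 to 3. P14 replicates 1 and 2 correlated at 0.973 with each other, and at 0.865 to 0.921 with the P7 arrays. Of the 1810 genes called higher, the library labelled P14 replicate 3 lay above the P7 mean in 1799, with a smaller change than P14 replicates 1 and 2 in 1589. Of the 1738 genes called lower it lay below the P7 mean in 1681, with a smaller change in 1510. These genes were called with this array in the fit, so its side of the P7 mean was largely set by the choice of genes. The median change of P14 replicate 3 was 0.848 against 1.60 for the genes called higher, and −0.573 against −1.19 for those called lower. Results are therefore given with and without it where the call or the direction rests on it. Without it 2071 genes were called higher and 2182 lower.

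The labels were set against marker genes first. Notch1 itself, the capture antigen, read 14.86, 14.80 and 15.05 at P7 and 14.24, 14.19 and 14.69 at P14. All 6 values were near the top of the scale, and the P14 values lay below the P7 values. Notch1 fell by 0.53 ± 0.19 (SE, adjusted p = 0.042). With the replicate number as a block the adjusted p was 0.066, and the call was lost in 11 of 19 other settings. Of 16 progenitor markers tested, 14 were found on all 6 arrays, but so were 23 of 24 endothelial markers and 8 of 12 markers of pericytes and smooth muscle. RNA of vessel genes was thus measured beside that of progenitor genes at both ages.

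Many of the largest rises were of genes known from vessels and their mural cells. The 12 largest were picked among called genes whose ages did not overlap. Matrix Gla protein, Mgp, an inhibitor of calcification, read 8.25, 8.36 and 7.82 at P7 and 13.79, 12.69 and 12.20 at P14. It rose by 4.75 ± 0.36 (SE, adjusted p = 2.18e-06), a 26.8-fold difference. Within the first scan day the difference was 4.32 and within the second 4.96. Higd1b, a mitochondrial protein used as a pericyte marker in the mouse brain, rose by 4.27 ± 0.45 (SE, adjusted p = 1.47e-05). Vtn, the adhesion protein vitronectin, rose by 3.91 ± 0.59 (SE, adjusted p = 0.000167). Ly6a, a surface antigen of endothelial and stem cells, rose by 4.10 ± 0.47 (SE, adjusted p = 2.18e-05). Ednra, the endothelin receptor of smooth muscle and pericytes, rose by 3.87 by its brightest probe, and its other probe gave 1.59. The rest of the 12 genes with the largest rises were Depp1, Wfdc1, Pltp, Lims2, Col8a1, Atp2a3 and Aoc3, at 3.80 to 3.99. Col8a1, a short-chain collagen, was found on no P7 array, and was at least 14.5-fold higher at P14. The lowest of 3 Pltp probes gave 0.64, and a second Atp2a3 probe 0.40. In bulk samples such as these, more cells of a type and more RNA per cell cannot be told apart.

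Many of the largest falls were of genes known from progenitors and young neurons. Fabp7, the fatty acid binding protein of radial glia and progenitors, read 14.51, 13.67 and 14.59 at P7 and 8.29, 7.61 and 12.88 at P14. It fell by 4.66 ± 0.87 (SE, adjusted p = 0.000813), and P14 replicate 3 lay between the other P14 arrays and the P7 arrays. Within the first scan day the difference was −6.06 and within the second −3.97. Otx2, the homeobox factor that starts photoreceptor and bipolar fates, read 15.11, 14.77 and 14.90 at P7 and 10.75, 10.17 and 13.44 at P14. It fell by 3.47 ± 0.55 (SE, adjusted p = 0.000215). Dll3, a Delta-like ligand of differentiating progenitors, fell by 3.56 ± 0.69 (SE, adjusted p = 0.000995). Myt1, a zinc finger factor of neuronal differentiation, fell by 3.43 ± 0.47 (SE, adjusted p = 7.85e-05), with 2 of its P7 values capped by saturation. Epha8, an ephrin receptor, fell by 4.15, and Chrna4, a nicotinic receptor subunit, fell by 3.71. The other 6 of the 12 largest falls were Plppr3, Rhbdl3, Actc1, Nol4, Igsf21 and Adcy2, at −4.01 to −3.45. Rhbdl3 had an adjusted p of 0.0595 with the replicate block, and a second probe for Nol4 gave 0.07. The 12 were picked among called genes whose ages did not overlap, so all P14 arrays lay below every P7 array by choice. In all 12 genes P14 replicate 3 was above P14 replicates 1 and 2. Without that array the falls were larger, at −6.31 for Fabp7, −4.47 for Otx2 and −4.77 for Dll3.

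**Figure D1:**
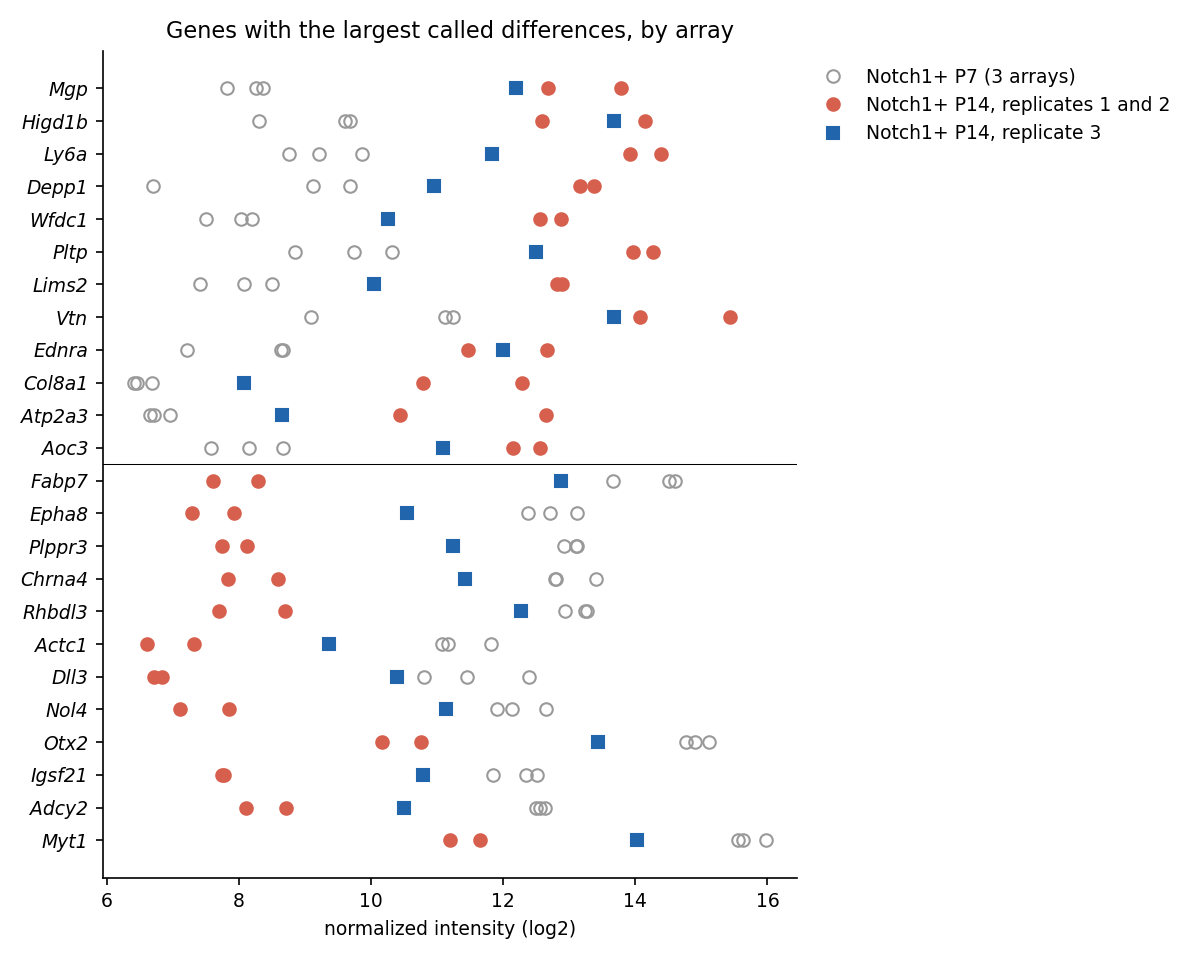
Normalized intensity (log2, horizontal axis) of the 12 genes with the largest called rise and the 12 with the largest called fall on each of the 6 arrays. Both sets were picked among called genes whose ages did not overlap. Open circles are P7 arrays, filled circles P14 replicates 1 and 2, and squares P14 replicate 3, which lies between the 2 sets of circles in all 12 genes that fell.

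Genes were then read in 40 lists of cell types, pathways and processes. The lists of vessel cells, matrix, microglia and interferon response had the highest shares of members called higher, and those of progenitors, neurogenic factors, photoreceptor transcription factors and oligodendrocytes the highest shares called lower. The median difference over all 12612 genes tested was −0.0189, a value that quantile normalization largely sets in advance. It was −0.116 under median scaling and 0.0692 under cyclic loess, so small list medians depend on the normalization. The lists have 706 entries, of which 607 were tested, 51 had no matched probe and 48 were not found on every array of any group.

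**Figure D2:**
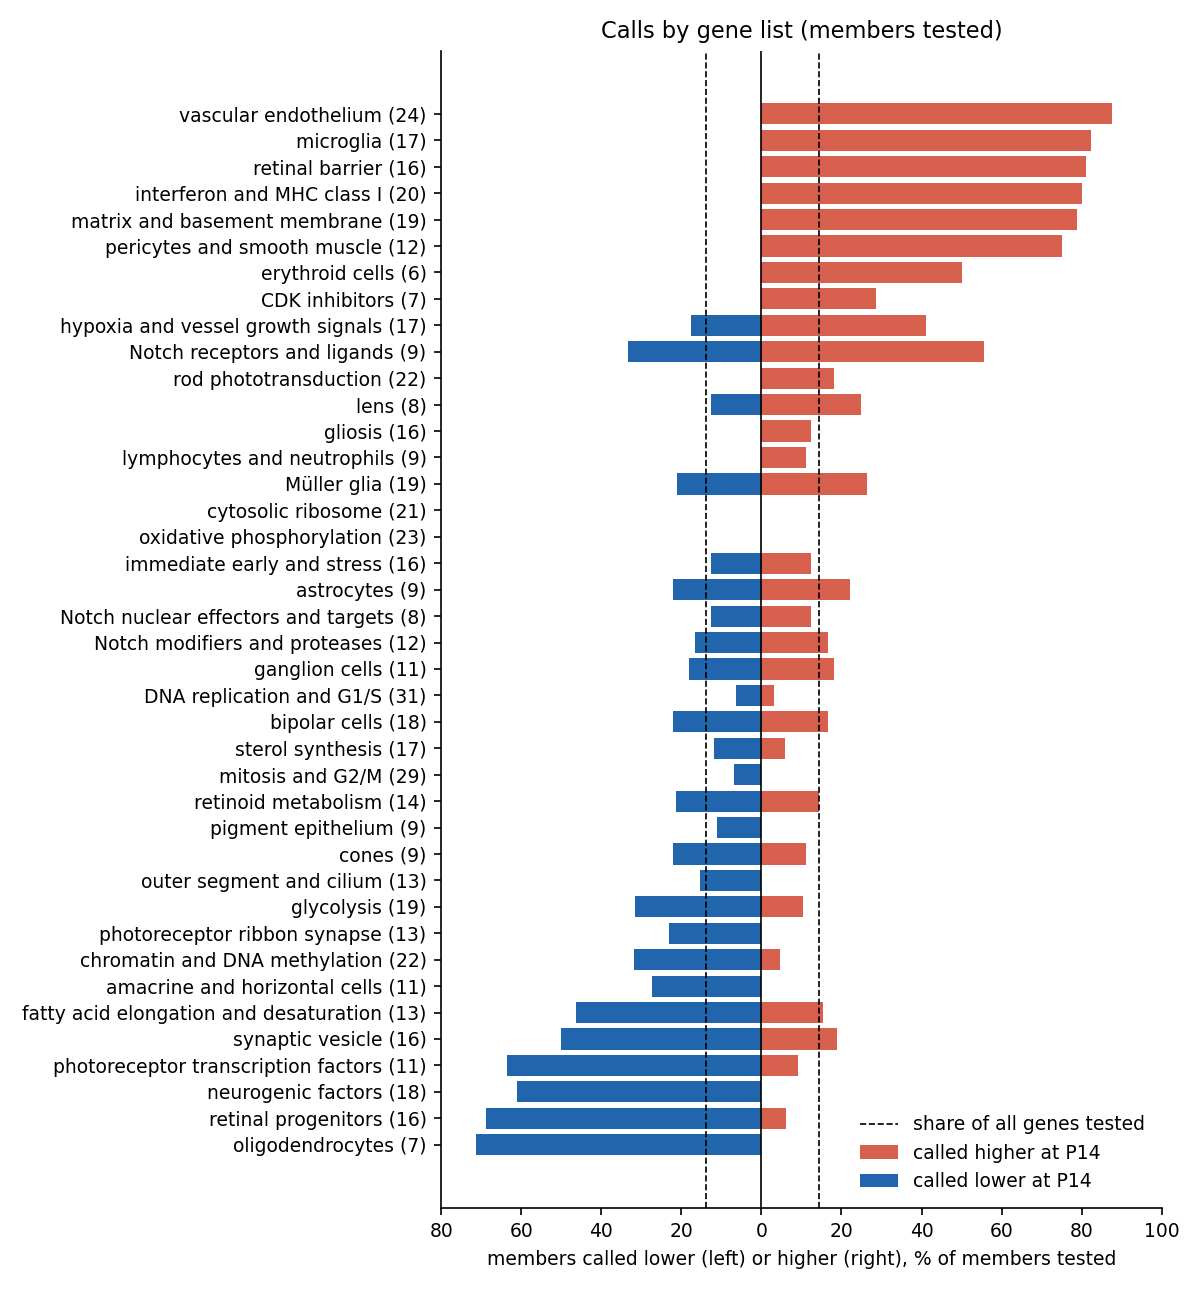
Members called lower (left) and higher (right) at P14 as a percentage of the members tested in each of 40 gene lists, with the number tested in parentheses. The dashed lines mark the shares of all genes tested, 13.8% lower and 14.4% higher, and the vascular endothelium list reaches furthest to the right with 21 of 24 members.

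Endothelial genes rose together. Of 24 markers tested, 21 were called higher and 0 lower (0 at an unadjusted p under 0.05), against 14.4% higher among all genes, with a median difference of 2.53. The junction molecule VE-cadherin, Cdh5, read 11.01, 11.87 and 9.99 at P7 and 13.73, 14.19 and 12.96 at P14. It rose by 2.67 ± 0.35 (SE, adjusted p = 6.03e-05), and the ages did not overlap. Ptprb, a phosphatase that restrains the Tie2 receptor, rose 9.85-fold (SE 0.44 on the log2 scale, adjusted p = 5.87e-05). The endothelial factors Sox17 and Sox18 rose by 2.85 and by 2.64, the receptors Tie1 and Tek by 2.79 and 2.45, and endoglin, Eng, by 3.102. Vwf, the clotting factor that endothelium stores, rose by 2.90, and Nos3, the endothelial nitric oxide synthase, by 2.95. For Emcn and Robo4 the second probe gave 0.12 and 1.02. The 3 markers not called were Cldn5, Kdr and Plvap. Kdr, the main receptor for Vegfa, gave 0.58 ± 0.32 (SE, adjusted p = 0.21) and Plvap, a protein of leaky vessels, 0.26 ± 0.41 (SE, adjusted p = 0.718). The tight junction gene Cldn5 was saturated on all P14 arrays. Its fold was estimated at 1.54 or more, with an adjusted p of 0.0653. Erg was found on no P7 array and was at least 2.11-fold higher, with an adjusted p of 0.112 with the replicate block.

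The list's median was higher on each P14 array than on any P7 array. Relative to the P7 mean it was 0.04, 0.99 and −1.07 at P7 and 2.77, 3.08 and 1.78 at P14. P14 replicate 3 was the lowest of the P14 arrays. The summed intensity of the markers was 75418 to 239303 at P7 and 374967 to 757564 at P14. The median difference was 2.005 within the first scan day and 2.76 within the second. Without P14 replicate 3 the calls were 21 higher and 0 lower of 24.

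Genes of the mature retinal barrier rose as well. Of 19 listed genes 16 were tested, and 13 were called higher and 0 lower (1 at an unadjusted p under 0.05), with a median of 1.93. Slco1c1, the thyroxine transporter of brain and retinal capillaries, read 11.20, 11.78 and 8.74 at P7 and 14.86, 14.56 and 13.57 at P14. It rose by 3.76 ± 0.56 (SE, adjusted p = 0.00013), and the ages did not overlap. The transporter Slco1a4 was found on no P7 array and on all P14 arrays, at least 11.2-fold higher. Occludin, Ocln, a protein of tight junctions, rose by 2.90 ± 0.35 (SE, adjusted p = 3.51e-05). Slc38a5, a glutamine transporter that Norrin signalling keeps on in retinal vessels, rose by 2.57, Foxf2, a factor of brain pericytes, by 2.33, and Lsr, a protein of tricellular junctions, by 2.13. Tspan12, the coreceptor for Norrin on endothelium, rose by 2.32, and Lef1, a nuclear partner of beta-catenin, by 1.41. The receptor Fzd4 and coreceptor Lrp5 of that same pathway were not called, with 0.07 (adjusted p = 0.822) and 0.51 (adjusted p = 0.48). Norrin itself, Ndp, which is made by Müller glia, read 12.27, 12.64 and 12.52 at P7 and 11.18, 10.32 and 12.79 at P14. Its P14 arrays 1 and 2 were below every P7 array and array 3 above them. The difference was −1.04 ± 0.42 (SE, adjusted p = 0.0721), and −1.73 without P14 replicate 3 (adjusted p = 0.000123). Slc16a1, a lactate carrier, was found on no P7 array and was at least 1.66-fold higher, with an adjusted p of 0.169 with the replicate block.

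Pericyte genes rose too. Of 12 markers tested, 9 were called higher and 0 lower (0 at an unadjusted p under 0.05), with a median of 2.34. The potassium channel pair of brain pericytes, Kcnj8 and Abcc9, rose by 3.74 and by 3.69. Kcnj8 read 7.00, 6.84 and 6.86 at P7 and 12.08, 9.94 and 9.90 at P14, with all P14 arrays far above all P7 arrays. Rgs5, a G protein regulator of pericytes, rose by 3.79 ± 0.43 (SE, adjusted p = 2.14e-05). Pdgfrb, the receptor through which vessels recruit pericytes, rose by 3.15 ± 0.44 (SE, adjusted p = 8.52e-05). Cspg4, the NG2 proteoglycan, rose by 1.52, with an adjusted p of 0.0796 with the replicate block. Of the smooth muscle genes, Myh11 rose by 1.34 and Des by 1.08, while Tagln gave 0.35 ± 0.23 (SE, adjusted p = 0.296) and Cnn1 0.18 ± 0.22 (SE, adjusted p = 0.632). Acta2, the actin of arterial smooth muscle, was found on none of the P7 arrays. Its fold was estimated at 1.35 or more, and it was not called (adjusted p = 0.14). The summed intensity of the 12 markers was 2596 to 6375 at P7 and 37907 to 105656 at P14. The median difference was 1.98 within the first scan day and 2.82 within the second.

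Genes of the extracellular matrix were mostly called higher. Of 19 tested, 15 were called higher and 0 lower (0 at an unadjusted p under 0.05), with a median of 1.99. The laminin chains of vascular basement membrane rose, Lama4 by 2.60, Lamb1 by 2.60 and Lamc1 by 1.99. Lama4 read 10.54, 10.85 and 9.36 at P7 and 13.23, 13.11 and 12.22 at P14, with no overlap between ages. The nidogens, which link laminin to collagen IV, rose by 2.84 (Nid2) and 2.71 (Nid1), and the secreted matrix proteins Sparcl1, Bgn and Fn1 by 2.91, 2.87 and 2.65. The fibrillar collagen Col3a1 rose by 2.72 by its brightest probe, while the other gave 0.08. Col4a1 and Col4a2, the main collagen IV chains, were saturated on all P14 arrays, and were at least 2.62-fold and 2.18-fold higher. With the replicate block their adjusted p-values were 0.065 and 0.12, and those of Col18a1 and Lamb2 were 0.0521 and 0.0556. Agrn, Dcn, Thbs1 and Col5a1 were not called, at −0.46 to 0.47.

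Signals between vessels and tissue went both ways. Of 17 genes tested, 7 were called higher and 3 lower (41.2% and 17.6%, beside 14.4% and 13.8% of all genes). Of genes that endothelium makes, Apln, the apelin ligand of sprouting tips, rose by 2.90, Pdgfb, the attractant for pericytes, by 2.90 and Angpt2, the antagonist of Tie2, by 2.48. Adm, adrenomedullin, rose by 3.23 and the growth factor Vegfc by 2.79. A second probe for Angpt2 gave 0.65. Epas1, the hypoxia factor of endothelium, rose by 1.96, and Egln3, an oxygen-sensing hydroxylase, by 1.18. The 3 that fell were Ndrg1, Bnip3 and Pdk1. Ndrg1 was saturated on the P7 arrays and at least 3.73-fold lower, with an adjusted p of 0.0699 with the replicate block, while Bnip3 fell by 0.97 and Pdk1 fell by 0.81. Vegfa, the main growth factor for retinal vessels, read 13.96, 14.37 and 13.49 at P7 and 12.58, 11.46 and 13.98 at P14. P14 replicates 1 and 2 were below the P7 arrays and replicate 3 was within them, and the difference was −1.26 ± 0.71 (SE, adjusted p = 0.213). Without P14 replicate 3 it was −1.92 (adjusted p = 0.0506). Hif1a gave −0.34 ± 0.47 (SE, adjusted p = 0.678).

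**Figure D3:**
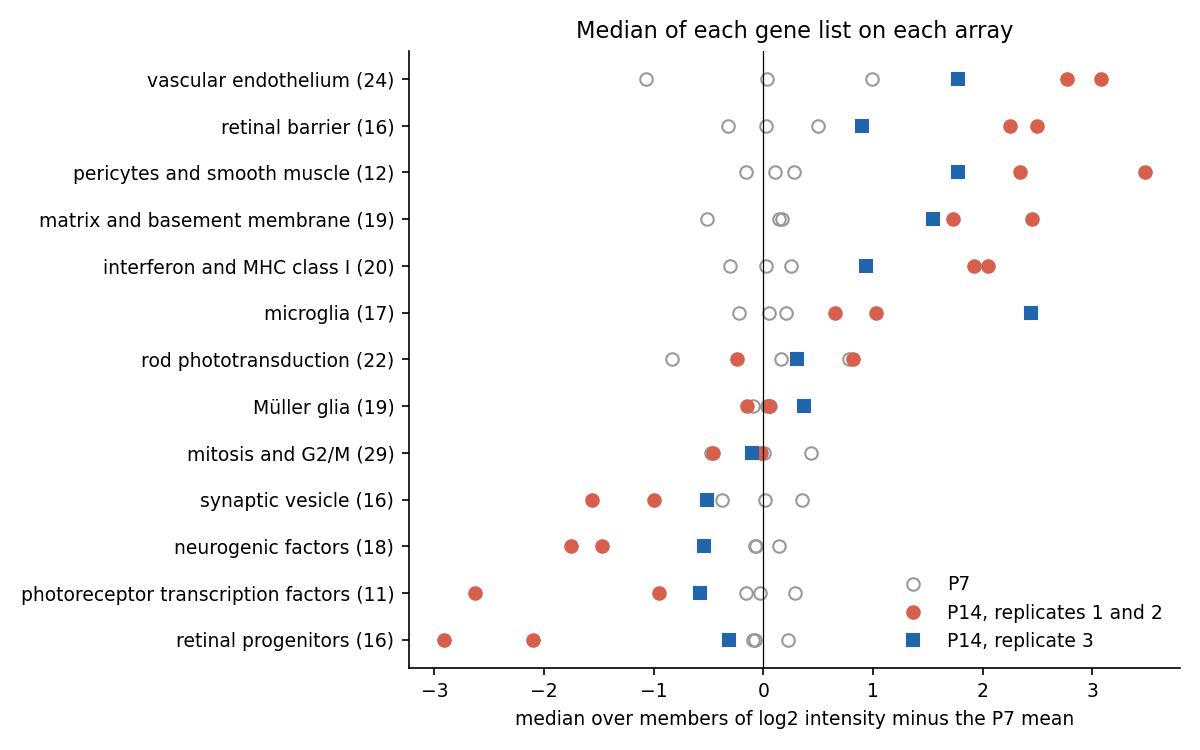
Median over the members of 13 gene lists of the log2 intensity on each array minus the gene's P7 mean (horizontal axis), with the number of members tested in parentheses. Open circles are P7 arrays, filled circles P14 replicates 1 and 2, and squares P14 replicate 3: the vascular endothelium medians are 2.77 and 3.08 for P14 replicates 1 and 2 and 1.78 for replicate 3, while for progenitors they are −2.10, −2.91 and −0.31.

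Genes induced by interferons and genes of antigen display by MHC class I rose in the same comparison. Interferons act through a complex of Stat factors and Irf9, which binds a response element in the promoters of its targets, and the core of that element reads GAAA, any 2 bases and GAAA again. Promoters of listed genes that hold this core are printed here to show where it lies. Each line gives the 160 bases before the annotated start from RefSeq (mouse build GRCm38.p6), 5′ to 3′ on the gene's strand, with the core in capitals in either orientation. The first 4 genes were called higher, and the last, the MHC light chain B2m, was not called.
Isg15: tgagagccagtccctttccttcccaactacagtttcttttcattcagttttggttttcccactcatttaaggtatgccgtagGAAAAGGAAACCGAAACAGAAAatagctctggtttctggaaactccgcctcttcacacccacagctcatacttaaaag
Bst2: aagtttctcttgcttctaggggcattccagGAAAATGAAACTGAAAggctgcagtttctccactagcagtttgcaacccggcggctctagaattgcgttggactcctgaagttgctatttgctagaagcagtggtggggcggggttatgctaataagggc
Ifit3: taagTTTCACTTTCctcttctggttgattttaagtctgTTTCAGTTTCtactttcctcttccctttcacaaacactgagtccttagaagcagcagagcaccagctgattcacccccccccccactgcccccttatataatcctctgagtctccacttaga
Oas1a: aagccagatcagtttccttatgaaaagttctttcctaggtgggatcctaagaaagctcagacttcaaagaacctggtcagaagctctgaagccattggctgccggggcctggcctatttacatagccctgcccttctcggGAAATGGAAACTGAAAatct
B2m: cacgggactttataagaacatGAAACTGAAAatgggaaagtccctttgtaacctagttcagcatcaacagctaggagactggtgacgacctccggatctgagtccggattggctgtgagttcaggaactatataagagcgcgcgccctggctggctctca
The windows lie at chr4:156200819-156200978 (minus strand) for Isg15, chr8:71537473-71537632 (minus) for Bst2, chr19:34583369-34583528 (plus) for Ifit3, chr5:120907526-120907685 (minus) for Oas1a and chr2:122147527-122147686 (plus) for B2m. In Isg15 there are 3 overlapping matches, beginning 78 to 66 bases before the start, and Bst2 and Oas1a hold 2 overlapping matches each. Ifit3 holds 2 separate matches in the opposite orientation, beginning 156 and 122 bases before its start, and B2m holds 1. In the 250 bases before the start, searched on both strands, 6 of the 18 list members with a window (33.3%) hold the core, against 936 of 27025 genes in the table (3.46%) and 339 of 10037 genes tested (3.38%). Among members called higher it was 4 of 14, and among those not called 2 of 4, B2m and Stat2. Among all genes called higher that have a window it was 70 of 1417 (4.94%). The list was made of known interferon and MHC class I genes, so its share says nothing of the change with age. The match is a description of letters, and binding was not measured.

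Of 20 members tested, 16 were called higher and 0 lower (0 at an unadjusted p under 0.05), with a median of 1.65. Isg15, a ubiquitin-like modifier induced by interferon, read 7.51, 8.02 and 7.33 at P7 and 10.76, 11.62 and 8.36 at P14. It rose by 2.62 ± 0.53 (SE, adjusted p = 0.00137), and P14 replicate 3 was closer to the P7 arrays than to the other P14 arrays. Bst2, the antiviral protein tetherin, read 10.84, 11.77 and 10.29 at P7 and 14.00, 14.08 and 12.31 at P14. It rose by 2.50 ± 0.40 (SE, adjusted p = 0.000241). Ifitm3, another antiviral membrane protein, rose by 2.65 ± 0.33 (SE, adjusted p = 3.68e-05). The immunoproteasome subunits Psmb8, Psmb9 and Psmb10 rose by 2.85, 2.49 and 1.58, and the lowest of 3 Psmb8 probes gave 0.60. The peptide transporter genes Tap1 and Tap2 rose by 1.97 and 1.60, and H2-K1, a class I heavy chain, by 2.03. H2-K1 and H2-D1 belong to a family of near-identical genes, so that their probes may read each other, and H2-D1 gave 0.16 ± 0.16 (SE, adjusted p = 0.543). The factors Irf7 and Irf9 rose by 1.80 and 1.49. Ifit3 and Oas1a rose by 1.81 and 1.001 by their brightest probes, while a second probe of each gave 0.13 and −0.13. Under the replicate block the calls for Ifit3, Oas1a, Tap2 and Tapbp ended, at adjusted p-values of 0.0881, 0.0574, 0.0753 and 0.138. B2m was found on none of the P7 arrays and 1 of the P14 arrays. Its fold was estimated at 1.57 or more, and it was not called (adjusted p = 0.0911, or 0.0422 with the block). The list's median relative to the P7 mean was 0.03, 0.26 and −0.30 at P7 and 1.92, 2.05 and 0.94 at P14, higher on all 3 P14 arrays than on any P7 array.

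Microglial genes rose too, and most of all on P14 replicate 3. Of 20 listed markers 17 were tested, and 14 were called higher and 0 lower (0 at an unadjusted p under 0.05), with a median of 1.44. Tmem119, a marker of resident microglia, read 7.81, 8.43 and 7.38 at P7 and 10.30, 10.05 and 9.59 at P14. It rose by 2.11 ± 0.28 (SE, adjusted p = 6.03e-05). C1qa, a chain of the complement protein C1q that microglia make, read 10.88, 11.11 and 10.48 at P7 and 11.86, 11.58 and 13.62 at P14. It rose by 1.53 ± 0.36 (SE, adjusted p = 0.00467), and P14 replicate 3 was by far the highest array. The list's median relative to the P7 mean was 0.05, 0.20 and −0.22 at P7 and 1.03, 0.65 and 2.44 at P14. P14 replicate 3 was thus the highest array here, while it was the lowest P14 array for the endothelial, barrier, pericyte and matrix lists. Cx3cr1, the fractalkine receptor, rose by 1.69, Ly86 by 1.73 and Fcer1g by 1.67. Without P14 replicate 3 the calls were 8 higher and 0 lower of 17, with a median of 0.88. In the fit with the replicate block 2 of the 17 were called, Tmem119 among them, and the adjusted p for C1qa was 0.123. The markers not called were P2ry12 with 0.90 ± 0.41 (SE, adjusted p = 0.115), Itgam with 0.35 ± 0.24 (SE, adjusted p = 0.337) and Ptprc, which was found on no P7 array (adjusted p = 0.203). The summed intensity of the markers was 20242 to 32877 at P7 and 48593 to 125734 at P14. Of 3 listed markers not tested, Csf1r, Cd68 and Mpeg1, none had a matched probe.

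Blood cells were looked for by their own genes. Of 6 erythroid genes tested, Hba-a1, Hbb-b2 and Alas2 were called higher (50%, beside 14.4% of all genes). Alas2, the heme synthesis enzyme of red cell precursors, read 9.10, 9.14 and 7.70 at P7 and 11.64, 11.33 and 10.004 at P14, with no overlap. The alpha globin Hba-a1 rose by 2.61 ± 0.86 (SE, adjusted p = 0.0302), with an adjusted p of 0.0514 without P14 replicate 3, and the beta globin Hbb-b2 rose by 2.39 ± 0.56 (SE, adjusted p = 0.00402). Globin genes have near-identical copies that a probe may not separate. The summed intensity of the 6 genes was 3280 to 12813 at P7 and 34082 to 47924 at P14. Of 9 genes of lymphocytes and neutrophils tested, 1 was called higher (11.1%, beside 14.4% of all genes). Cd79b rose by 1.80 (0.29 by its other probe). The erythroid and microglial genes moved with the vessel genes in the sense of a rise at P14, and their part in the rise of the interferon and vessel lists was not tested.

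Progenitor genes fell, most of all on P14 replicates 1 and 2. Of 16 markers tested, 11 were called lower and 1 higher, with a median of −1.43. The median relative to the P7 mean was −0.08, −0.09 and 0.22 at P7 and −2.10, −2.91 and −0.31 at P14. P14 replicate 3 lay just below the P7 arrays and far above the other P14 arrays. Hes5, a Notch target that keeps progenitors undifferentiated, read 11.35, 11.39 and 11.98 at P7 and 7.44, 7.74 and 11.12 at P14. It fell by 2.81 ± 0.62 (SE, adjusted p = 0.00279). Rax, a homeobox factor of the eye field, read 12.51, 12.18 and 12.51 at P7 and 9.62, 8.63 and 11.87 at P14. It fell by 2.36 ± 0.51 (SE, adjusted p = 0.00218). Fgf15, a growth factor of retinal progenitors, fell by 2.35 ± 0.41 (SE, adjusted p = 0.000478). Sox8 fell by 2.25 and Sox2, which maintains progenitor and glial identity, by 1.96, and Six6 fell by 1.86. Six3, missed on each P14 array, was lower by at least 1.7-fold. With the replicate block Fgf15, Six3 and Sox8 remained called lower, at adjusted p-values of 0.0238, 0.0374 and 0.048. The calls for Hes5, Rax, Sox2, Six6, Lhx2, Ccnd1 and Notch1 ended, at 0.0507, 0.0589, 0.0669, 0.0774, 0.0675, 0.0781 and 0.066. Without P14 replicate 3 the calls were 1 higher and 13 lower of 16, with a median of −2.27. The median difference was −2.51 within the first scan day and −1.04 within the second. Fitted to the second scan day alone, limma called 0 of the 16 lower, and 5 at an unadjusted p under 0.05. Fitted to the 6 arrays alone it also called 0 lower, and 11 at an unadjusted p under 0.05.

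Nes, Hes1, Zfp36l1 and Pax6 were not among the genes that fell. Nes, the intermediate filament nestin, which progenitors and sprouting endothelium both make, read 11.30, 11.78 and 11.69 at P7 and 13.75, 13.41 and 12.35 at P14. It rose by 1.58 ± 0.26 (SE, adjusted p = 0.000267), with no overlap between ages, though a second probe gave 0.27. Hes1 read 12.80, 12.91 and 12.60 at P7 and 12.75, 12.46 and 13.24 at P14, with overlapping ages and a difference of 0.04 ± 0.23 (SE, adjusted p = 0.929). Zfp36l1, an RNA-binding protein of progenitors, gave 0.33 ± 0.26 (SE, adjusted p = 0.411). Pax6 gave −1.40 ± 0.57 (SE, adjusted p = 0.0808), and −2.40 without P14 replicate 3 (adjusted p = 2.57e-05). Ccnd1, the cyclin of retinal progenitors and one of the 11 called lower, read 15.82, 15.97 and 15.58 at P7 and 14.79, 14.97 and 15.36 at P14, and was saturated on all P7 arrays. It was at least 1.68-fold lower at P14 (adjusted p = 0.0213).

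Factors of neurogenesis fell with the progenitor genes. Of 18 tested, 11 were called lower and 0 higher (0 at an unadjusted p under 0.05), with a median of −1.26. Insm1, a zinc finger factor of newborn neurons, read 11.22, 10.69 and 10.90 at P7 and 7.82, 7.23 and 9.31 at P14. It fell by 2.82 ± 0.45 (SE, adjusted p = 0.00026), and the ages did not overlap. Olig2, a factor of progenitors about to divide a last time, fell by 2.13 ± 0.36 (SE, adjusted p = 0.000334) by its brightest probe while another gave 0.12. Ptf1a, which sets amacrine and horizontal fates, read 7.70, 8.07 and 8.87 at P7 and 6.38, 6.65 and 6.68 at P14. It fell by 1.65 ± 0.23 (SE, adjusted p = 8.7e-05), and P14 replicate 3 was here as low as the other P14 arrays. Sox4 fell by 1.74, Neurod4 by 2.45 and Rxrg by 2.23. Atoh7, the factor of ganglion cell fate, was found on none of the P14 arrays and was at least 1.78-fold lower. Hes6, an inhibitor of Hes1, was saturated on the P7 arrays and at least 2.74-fold lower, and Hes6 and Neurog2 had adjusted p-values of 0.16 and 0.102 with the replicate block. Btg2, Sox11 and Gadd45a were not called, at −1.32, −0.79 and −0.20. The list median was −1.49 within the first scan day and −1.14 within the second.

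Of the Notch pathway, the receptors and ligands were mostly called. Of 9 tested, 5 were called higher and 3 lower (55.6% and 33.3%, beside 14.4% and 13.8% of all genes). Among receptors, Notch4, known from endothelium, read 12.57, 13.22 and 11.90 at P7 and 15.22, 15.22 and 14.104 at P14. It rose by 2.28 ± 0.36 (SE, adjusted p = 0.000209). Notch3, known from pericytes and smooth muscle, read 8.45, 9.06 and 8.45 at P7 and 11.13, 10.12 and 10.24 at P14. It rose by 1.84 ± 0.37 (SE, adjusted p = 0.00133). In both, all P14 arrays lay above all P7 arrays, while Notch1 fell as given above. Notch2 was not tested, as its probe was not found on every array of any group.

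Among ligands, Jag1, Jag2 and Dll4 rose while Dll1 and Dll3 fell. Jag1 read 9.72, 10.34 and 8.61 at P7 and 12.54, 12.69 and 11.31 at P14. It rose by 2.62 ± 0.47 (SE, adjusted p = 0.000572). Dll4, the ligand of endothelial tips, read 9.76, 10.58 and 9.82 at P7 and 11.96, 12.64 and 10.89 at P14. It rose by 1.78 ± 0.36 (SE, adjusted p = 0.00128), with a second probe at 0.76. Jag2 rose by 1.42 ± 0.30 (SE, adjusted p = 0.00192). Dll1, the ligand of differentiating progenitors, read 10.10, 10.11 and 10.69 at P7 and 7.13, 6.93 and 9.25 at P14. It fell by 2.53 ± 0.42 (SE, adjusted p = 0.000311), and Dll3 fell by 3.56. In Dll1 the P14 replicate 3 lay between the other P14 arrays and the P7 arrays, and without it the difference was −3.26. Dlk1, a related protein without the Delta domain, gave −0.28 ± 0.33 (SE, adjusted p = 0.622).

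Fewer members of the rest of the pathway were called. Of 12 modifiers and proteases tested, 2 were called in each direction (16.7%), near the shares of all genes (14.4% higher and 13.8% lower). Adam17, a protease that can shed the receptor's outer part, rose by 0.96 and Numb, an inhibitor of Notch, by 0.70. The fringe glycosyltransferase Rfng fell by 0.50, and Dner, a Notch-binding protein of neurons, by 1.59. Of these 4, Numb remained called with the replicate block, at 0.0488, and the others had adjusted p-values of 0.0681, 0.0692 and 0.0893. The gamma-secretase genes Ncstn, Psenen, Aph1a and Psen2 were not called, at −0.07, −0.13, 0.49 and 0.23. Of 8 nuclear effectors and targets, Hey1, a target in endothelium, read 11.48, 11.54 and 11.38 at P7 and 13.25, 12.57 and 11.54 at P14. It rose by 0.99 ± 0.33 (SE, adjusted p = 0.0321), with an adjusted p of 0.106 with the block, and P14 replicate 3 was level with P7 replicate 2. Hes5 was the member that fell. Nrarp, Maml1 and Heyl gave 0.46 ± 0.21 (SE, adjusted p = 0.117), 0.01 ± 0.19 (SE, adjusted p = 0.984) and 0.15 ± 0.44 (SE, adjusted p = 0.869), and Rbpj and Hey2 −0.40 ± 0.30 (SE, adjusted p = 0.374) and −0.74 ± 0.28 (SE, adjusted p = 0.058).

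**Figure D4:**
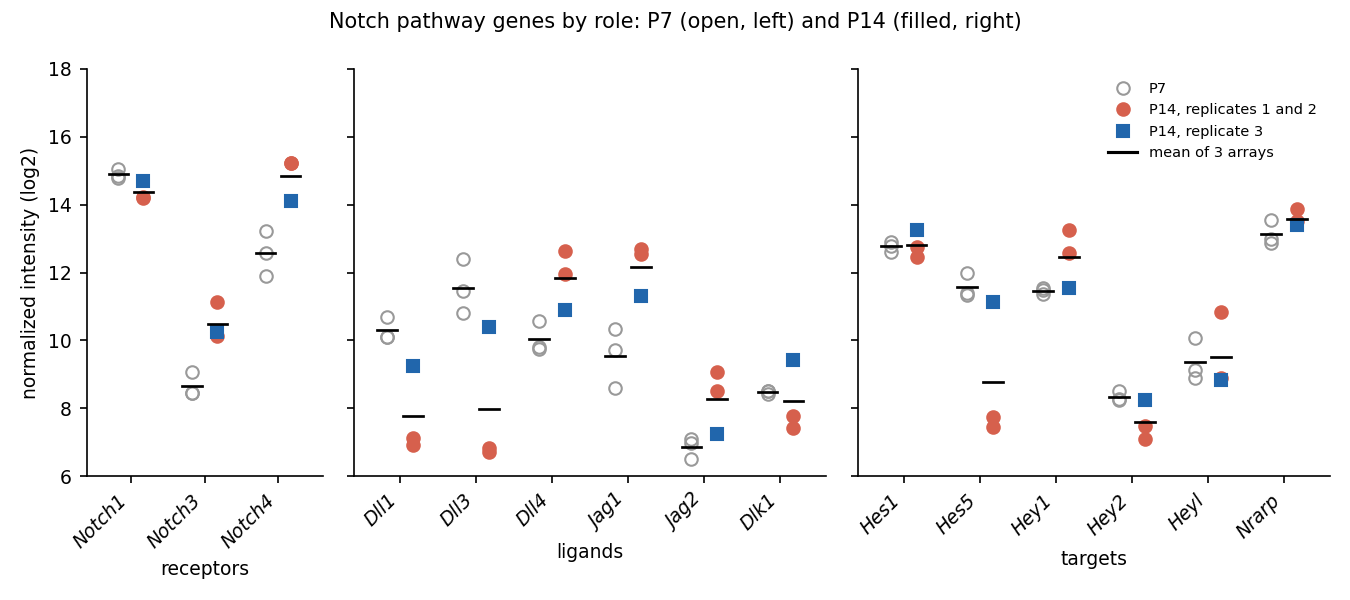
Normalized intensity (log2, vertical axis) of the Notch pathway genes on the 3 P7 arrays (open, left of each gene) and the 3 P14 arrays (filled, right; the square is replicate 3), by role, with the mean of each age as a line. The P14 arrays of Notch3, Notch4, Jag1, Jag2 and Dll4 lie above their P7 arrays, and those of Dll1 and Dll3 below.

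Müller glial genes did not move one way. Of 19 tested, 5 were called higher and 4 lower, with a median of −0.02. Clu, the secreted chaperone clusterin, read 11.29, 11.14 and 9.77 at P7 and 13.90, 12.77 and 13.45 at P14. It rose by 2.64 ± 0.34 (SE, adjusted p = 4.5e-05). Aqp4, the water channel of glial endfeet, read 7.04, 6.83 and 6.54 at P7 and 9.80, 7.93 and 9.07 at P14. It rose by 2.14 ± 0.33 (SE, adjusted p = 0.000199) by the brightest of its 3 probes, and the lowest of them gave −0.18. Glul, glutamine synthetase, read 12.95, 12.39 and 13.06 at P7 and 14.49, 13.20 and 14.09 at P14. It rose by 1.12 ± 0.35 (SE, adjusted p = 0.0245), and without P14 replicate 3 the adjusted p was 0.0557. Abca8a rose by 2.47 and Timp3, an inhibitor of matrix proteases, by 1.57. These 5 rises stood beside falls of Sox9, Crb1, Pdpn and Dkk3, by 1.16, 1.13, 1.49 and 0.67. All 4 falls ended with the replicate block, at adjusted p-values of 0.117, 0.15, 0.0635 and 0.215.

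For Slc1a3 and Rlbp1 the result depended on P14 replicate 3. Slc1a3, the glutamate transporter Glast, read 15.78, 15.65 and 15.63 at P7 and 14.60, 13.72 and 15.88 at P14. P14 replicates 1 and 2 lay below the other arrays, of which P14 replicate 3 and 2 of the P7 arrays were saturated. The difference, inexact for that reason, was −0.96 ± 0.37 (SE, adjusted p = 0.067). Without replicate 3 it was −1.53 (adjusted p = 0.000365). Rlbp1, the retinaldehyde-binding protein, read 14.36, 14.43 and 14.24 at P7 and 13.74, 11.91 and 14.67 at P14. The difference was −0.90 ± 0.47 (SE, adjusted p = 0.175), and −1.51 without replicate 3 (adjusted p = 0.00788). Apoe and Vim gave −0.18 ± 0.18 (SE, adjusted p = 0.541) and 0.35 ± 0.16 (SE, adjusted p = 0.123). Without P14 replicate 3 the calls in the list were 4 higher and 8 lower of 19. The summed intensity of the markers was 290208 to 300230 at P7 and 150950 to 363960 at P14, so that the P14 arrays lay on both sides of the P7 range. Kcnj10, the potassium channel of Müller glia, had no matched probe.

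Of 16 genes of gliosis tested, 2 were called higher (12.5%, beside 14.4% of all genes) and 0 lower (1 at an unadjusted p under 0.05). The median was 0.46, 13 of the 16 differences were positive, and 6 were higher at an unadjusted p under 0.05. For 6 genes all P14 arrays lay above all P7 arrays, a placement seen in 17% of all genes. Osmr, the oncostatin receptor, rose by 2.58 ± 0.35 (SE, adjusted p = 7.19e-05) and Timp1, an inhibitor of matrix proteases, rose by 1.86 ± 0.37 (SE, adjusted p = 0.00113). Gfap, the filament of reactive glia, was found on 0 of the 6 arrays. Stat3, Socs3 and Cp gave 0.66 ± 0.30 (SE, adjusted p = 0.118), 0.58 ± 0.32 (SE, adjusted p = 0.201) and −0.999 ± 0.47 (SE, adjusted p = 0.132). Among 9 astrocyte genes, 2 were called in each direction (22.2%, beside 14.4% higher and 13.8% lower of all genes). Gja1, the gap junction protein connexin 43, read 12.28, 13.21 and 11.09 at P7 and 14.70, 14.93 and 13.89 at P14. It rose by 2.31 ± 0.37 (SE, adjusted p = 0.00025). Slc1a2, the glutamate transporter GLT-1, fell by 2.34 ± 0.54 (SE, adjusted p = 0.00368). Pdgfra, a receptor of retinal astrocytes, gave −1.04 ± 0.50 (SE, adjusted p = 0.141), and −1.92 without P14 replicate 3 (adjusted p = 4.48e-05). Aldh1l1 and Pax2 were not called, at −0.21 and 0.12.

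Of 7 genes of the oligodendrocyte lineage tested, 5 were called lower (71.4%, beside 13.8% of all genes) and 0 higher (0 at an unadjusted p under 0.05). Mbp, a protein of myelin, read 8.24, 7.89 and 8.82 at P7 and 6.42, 6.13 and 7.41 at P14. It fell by 1.66 ± 0.30 (SE, adjusted p = 0.000677). Cnp fell by 1.18, Cldn11 by 1.88 and Olig1, which neural progenitors also make, by 1.12. Under the replicate block Olig1 had an adjusted p of 0.0661. The myelin genes Mog and Mag gave 0.32 ± 0.25 (SE, adjusted p = 0.407) and 0.20 ± 0.44 (SE, adjusted p = 0.813). The mouse retina normally holds no myelin.

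Photoreceptor genes were read by role, the transcription factors first. Of 11 transcription factors tested, 7 were called lower and 1 higher, with a median of −1.28. Crx, which switches on the genes of both photoreceptor types, read 14.28, 13.35 and 13.94 at P7 and 11.57, 10.93 and 13.28 at P14. It fell by 1.93 ± 0.63 (SE, adjusted p = 0.0286). Neurod1 read 15.10, 14.44 and 14.91 at P7 and 11.75, 10.96 and 14.205 at P14. It fell by 2.51 ± 0.59 (SE, adjusted p = 0.004), and Rorb, needed for the rod fate, fell by 2.68 ± 0.57 (SE, adjusted p = 0.00209). Rxrg, a receptor of cones, fell by 2.23, and Prdm1, which holds back the bipolar fate, by 1.21 (adjusted p = 0.0526 without P14 replicate 3). Nrl, the factor that makes a rod, read 15.52, 14.70 and 14.87 at P7 and 14.08, 12.40 and 14.79 at P14. Its P14 arrays overlapped the P7 arrays and the difference was −1.28 ± 0.55 (SE, adjusted p = 0.0965), or −1.79 without P14 replicate 3 (adjusted p = 0.019). In the fit with the replicate block the calls for Neurod1, Rorb and Nr2e3 ended, at 0.0547, 0.0515 and 0.12. Mef2c, a factor of photoreceptors and also of endothelium, rose by 2.51, and Esrrb, a nuclear receptor of rods, gave 1.67 ± 0.61 (SE, adjusted p = 0.0505) and passed with the block (adjusted p = 0.0488). Without P14 replicate 3 the calls were 2 higher and 7 lower of 11.

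Of 22 rod phototransduction genes tested, 4 were called higher and 0 lower (1 at an unadjusted p under 0.05), a share near that of all genes. Gnat1, rod transducin, read 11.45, 11.90 and 9.85 at P7 and 14.64, 13.63 and 12.65 at P14. It rose by 2.57 ± 0.55 (SE, adjusted p = 0.00215). Rgs9, which ends the transducin signal and is not specific to the retina, rose by 1.99 ± 0.31 (SE, adjusted p = 0.000186). Slc24a1, the rod calcium exchanger, rose by 2.19 and Guca1b, an activator of guanylate cyclase, by 2.18, the latter with an adjusted p of 0.0815 with the replicate block. Sag, Pde6b and Pdc, among the brightest of the list, gave −0.07 ± 0.56 (SE, adjusted p = 0.95), −0.81 ± 0.51 (SE, adjusted p = 0.276) and −0.55 ± 0.45 (SE, adjusted p = 0.424).

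Of 13 genes of the outer segment and its cilium tested, 2 were called lower (15.4%, near the 13.8% of all genes). The number called higher was 0 (0 at an unadjusted p under 0.05). Prom1 and Mak fell by 1.24 and 1.49. With the replicate block their adjusted p-values were 0.0823 and 0.104. Rom1, Prph2 and Cdhr1, proteins of the discs and their rims, gave −0.75 ± 0.35 (SE, adjusted p = 0.126), −0.44 ± 0.50 (SE, adjusted p = 0.601) and −1.11 ± 0.64 (SE, adjusted p = 0.232). Of 9 cone genes, 1 was called higher and 2 lower (11.1% and 22.2%, beside 14.4% and 13.8% of all genes). The medium-wave opsin Opn1mw read 8.44, 8.02 and 6.67 at P7 and 12.09, 12.11 and 9.47 at P14. It rose by 3.51 ± 0.64 (SE, adjusted p = 0.000711), with no overlap. The cone transducin subunits Gnb3 and Gngt2 fell by 1.69 and 2.12, while Gnat2, Pde6h and Arr3 gave 0.21 ± 0.69 (SE, adjusted p = 0.876), 0.20 ± 0.69 (SE, adjusted p = 0.887) and 0.83 ± 0.67 (SE, adjusted p = 0.415). Opn1sw, the short-wave opsin, was found on 2 P7 arrays and 1 P14 array.

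**Figure D5:**
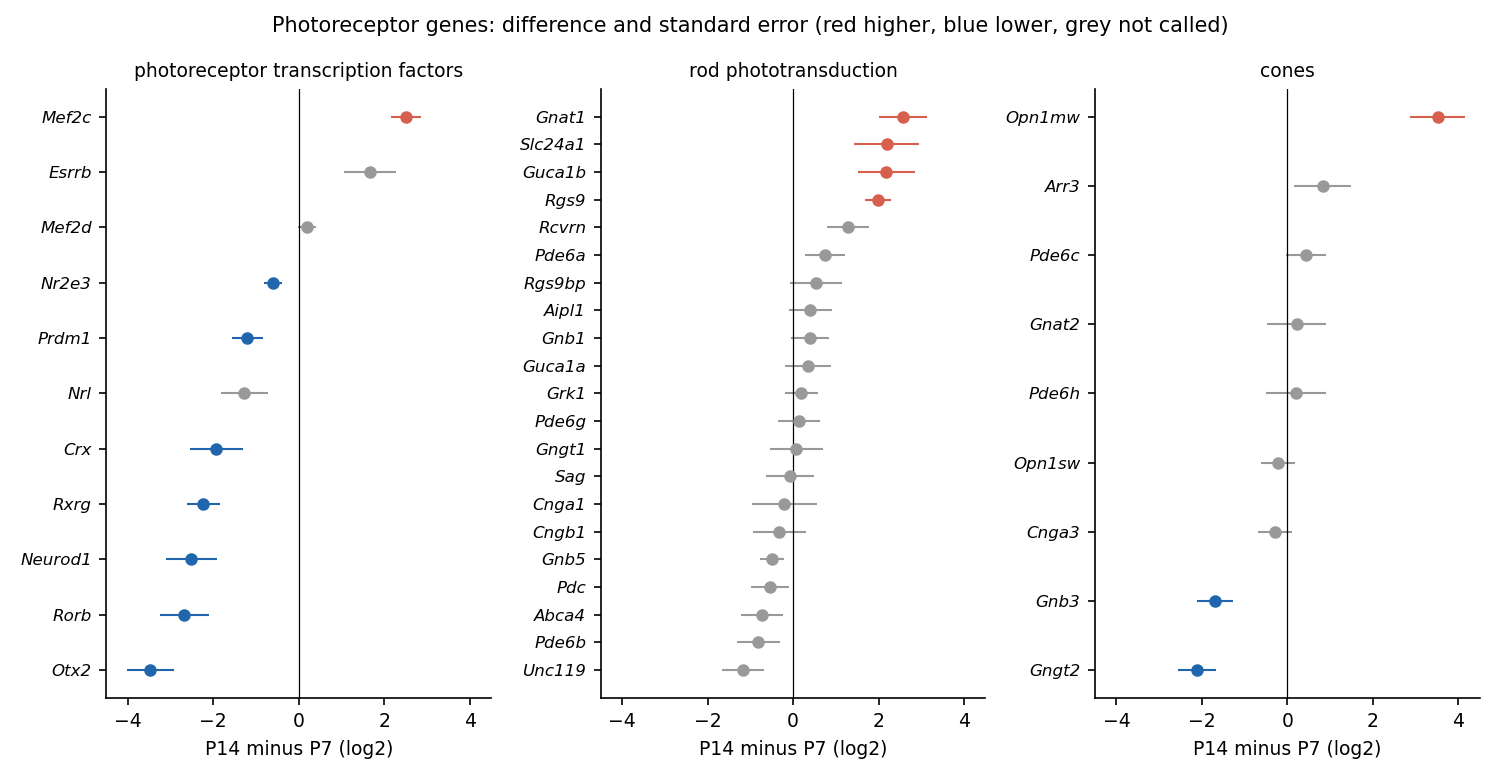
Difference between P14 and P7 (log2, horizontal axis) with its standard error for the photoreceptor transcription factors, the rod phototransduction genes and the cone genes, with 1 rod gene tested left out. Red points were called higher, blue points lower and grey points were not called: 7 of 11 transcription factors are blue, and 17 of the 21 rod genes shown are grey.

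Of 16 synaptic vesicle genes tested, 8 were called lower and 3 higher (50% and 18.8%, beside 13.8% and 14.4% of all genes). The median was −1.03. Cplx2, a complexin that holds vesicles ready for fusion, read 8.23, 7.54 and 8.42 at P7 and 6.59, 6.50 and 7.44 at P14. It fell by 1.22 ± 0.27 (SE, adjusted p = 0.00261). Cplx1 fell by 1.93, Syp by 1.67, Snap25 by 1.63 and Syn1 by 1.31. The 3 that rose were Stx1a (1.90), Sypl (1.13), the synaptophysin relative of non-neuronal tissues, and Syn2 (0.82). Under the replicate block 2 genes remained called lower, Cplx2 among them, and Cplx1, Syp, Snap25 and Syn1 had adjusted p-values of 0.0536, 0.0551, 0.0681 and 0.127. Of 13 genes of the photoreceptor ribbon synapse tested, 3 were called lower (23.1%, beside 13.8% of all genes). Pclo, Rims2 and Ctbp2 fell by 2.01, 0.96 and 0.42. All 3 calls ended with the block, at 0.0939, 0.0566 and 0.137. Cacna1f, the calcium channel of that synapse, gave 0.08 ± 0.52 (SE, adjusted p = 0.942).

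Of 18 bipolar genes tested, 3 were called higher and 4 lower (16.7% and 22.2%, beside 14.4% and 13.8% of all genes). Gng13, a G protein subunit of ON bipolar cells, rose by 2.03 ± 0.40 (SE, adjusted p = 0.00119), and Gabrr2, a GABA receptor subunit, rose by 1.27 ± 0.32 (SE, adjusted p = 0.00669). Grm6, the glutamate receptor of ON bipolar cells, read 12.84, 12.13 and 7.86 at P7 and 11.73, 11.10 and 11.08 at P14. P7 replicate 3 was far below the other 5 arrays, and the difference was 0.36 ± 0.95 (SE, adjusted p = 0.844). Irx6, Prkca and Vsx1 fell by 1.27, 0.55 and 0.88, with adjusted p-values of 0.0777, 0.159 and 0.15 with the replicate block, and 0.111 for Pcp2, which rose by 1.03 (adjusted p = 0.0785 without P14 replicate 3). Of 11 amacrine and horizontal genes, 3 were called lower (27.3%, beside 13.8% of all genes). Onecut2, a factor of horizontal and ganglion cells, fell by 3.09 ± 0.51 (SE, adjusted p = 0.000311). Slc6a9, the glycine transporter, fell by 2.22 by its brightest probe, while another gave −0.14, and Prox1 fell by 2.12, with an adjusted p of 0.0958 with the block. Of 11 ganglion cell genes, 2 were called in each direction (18.2%), also near the shares of all genes. Isl2 fell by 2.33 ± 0.31 (SE, adjusted p = 6.03e-05) and Gap43, a protein of growing axons, fell by 1.66 (adjusted p = 0.0692 with the block). Rbpms, which smooth muscle also makes, rose by 2.11 ± 0.40 (SE, adjusted p = 0.00089), and Sncg rose by 1.11.

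Few cell cycle genes were called. Of 29 genes of mitosis and G2/M tested, 0 were called higher (0 at an unadjusted p under 0.05) and 2 lower (6 at an unadjusted p under 0.05), a share of calls below that of all genes. The median was −0.19, and 22 of the 29 differences were negative. Median scaling called 4 lower with a median of −0.39, and cyclic loess 1 with a median of −0.12. Ccnb1, a mitotic cyclin, read 10.27, 10.83 and 11.53 at P7 and 9.13, 9.94 and 10.08 at P14. It fell by 1.16 ± 0.27 (SE, adjusted p = 0.00402). Bub1b, of the spindle checkpoint, fell by 0.70, with an adjusted p of 0.0726 with the replicate block and 0.0782 without P14 replicate 3. Top2a read 9.48, 9.67 and 10.28 at P7 and 9.26, 9.74 and 9.54 at P14, with a difference of −0.29 ± 0.21 (SE, adjusted p = 0.343). Cdk1, Prc1 and Ccna2 gave 0.59 ± 0.33 (SE, adjusted p = 0.212), 0.05 ± 0.33 (SE, adjusted p = 0.944) and −0.36 ± 0.27 (SE, adjusted p = 0.373). Mki67 had no matched probe. Of 31 replication and G1/S genes tested, 1 was called higher and 2 lower (3.23% and 6.45%, below the 14.4% and 13.8% of all genes). E2f1, which switches on the S phase genes, read 12.98, 13.68 and 13.76 at P7 and 10.85, 11.23 and 12.63 at P14. It fell by 1.90 ± 0.36 (SE, adjusted p = 0.000846). Mcm7, of the replicative helicase, fell by 1.21 ± 0.20 (SE, adjusted p = 0.000295), with a second probe at 0.08, while Mcm6 gave 0.71 ± 0.35 (SE, adjusted p = 0.158) and Pcna 0.16 ± 0.17 (SE, adjusted p = 0.543). Tk1 rose by 0.88, with an adjusted p of 0.052 with the block.

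Of 7 inhibitors of cyclin-dependent kinases tested, 2 rose (28.6%, beside 14.4% of all genes) and 0 fell (0 at an unadjusted p under 0.05). Cdkn1a, the p53 target p21, read 10.80, 11.84 and 9.98 at P7 and 13.97, 14.05 and 12.45 at P14. It rose by 2.62 ± 0.53 (SE, adjusted p = 0.00139). Cdkn2b read 9.05, 9.37 and 8.73 at P7 and 11.70, 11.82 and 10.34 at P14. It rose by 2.24 ± 0.32 (SE, adjusted p = 8.99e-05). Both sets of P14 arrays lay above all P7 arrays. Cdkn1b, which takes late retinal progenitors out of the cycle, gave −0.46 ± 0.27 (SE, adjusted p = 0.233), and Cdkn1c −0.62 ± 0.30 (SE, adjusted p = 0.145), or −1.11 without P14 replicate 3 (adjusted p = 0.000448).

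Of 22 chromatin genes tested, 7 were called lower and 1 higher (31.8% and 4.55%, beside 13.8% and 14.4% of all genes). Hmga1, a chromatin protein of dividing cells, read 14.36, 14.91 and 14.86 at P7 and 11.97, 12.86 and 13.70 at P14. It fell by 1.87 ± 0.31 (SE, adjusted p = 0.000334). Kdm1a, a histone demethylase, fell by 1.54 ± 0.25 (SE, adjusted p = 0.000263). The Polycomb genes Ezh2 and Cbx2 fell by 1.25 and 1.34, and Hdac2 by 0.89. Smarca4 and Smarcc1, of the SWI/SNF remodeller, fell by 0.78 and 0.53, with adjusted p-values of 0.0648 and 0.123 with the replicate block. Dnmt3b, which writes new DNA methylation, rose by 0.99, while Dnmt1 gave −0.47 ± 0.18 (SE, adjusted p = 0.0544) and Dnmt3a −0.30 ± 0.25 (SE, adjusted p = 0.448).

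In lipid metabolism, 6 of 13 genes of fatty acid elongation and desaturation were called lower and 2 higher. These shares were 46.2% and 15.4%, beside 13.8% and 14.4% of all genes. Elovl2, which elongates the precursors of docosahexaenoic acid, read 10.43, 9.11 and 9.76 at P7 and 7.04, 6.13 and 7.57 at P14. It fell by 2.85 ± 0.45 (SE, adjusted p = 0.000215). Elovl4, the elongase of photoreceptor very long chains, fell by 1.71 ± 0.40 (SE, adjusted p = 0.0042). Fads2 fell by 1.33, Acsl6 by 1.85 (second probe −0.01), Fasn by 1.81 and Fads1 by 0.57. In the fit with the replicate block Fasn and Fads1 had adjusted p-values of 0.0877 and 0.0632. Elovl1 and Elovl7 rose by 1.83 and 1.10, the latter with an adjusted p of 0.0626 with the block. Of 17 sterol synthesis genes, 1 was called higher and 2 lower (5.88% and 11.8%, beside 14.4% and 13.8% of all genes). Nsdhl rose by 1.58 ± 0.22 (SE, adjusted p = 8.52e-05) by the brightest of its 3 probes, while the lowest gave −0.40. Lss and Sqle fell by 1.18 and 0.70. The Sqle call ended with the block, at 0.0541. Hmgcs1 and Fdps gave −0.23 ± 0.20 (SE, adjusted p = 0.455) and −0.55 ± 0.26 (SE, adjusted p = 0.135).

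In energy metabolism, 6 of 19 glycolytic genes were called lower and 2 higher (31.6% and 10.5%, beside 13.8% and 14.4% of all genes). The median was −0.22. Ldhb, the lactate dehydrogenase subunit, read 14.71, 14.93 and 14.81 at P7 and 13.44, 13.03 and 14.39 at P14. It fell by 1.20 ± 0.24 (SE, adjusted p = 0.00118). Pgk1 fell by 0.74, Tpi1 by 0.60, Hk2 by 0.78, Slc16a3 by 1.16 and Pkm by 0.74. With the replicate block Pkm remained called lower, though not without P14 replicate 3 (adjusted p = 0.148), and the block's adjusted p was 0.0626 for Ldhb and 0.103 for Pgk1. Pfkfb3, which raises glycolysis in sprouting endothelium, rose by 1.31 ± 0.35 (SE, adjusted p = 0.00938). Gapdh, Ldha and Eno1 were not called, and their probes were saturated on all P7 arrays. Under cyclic loess the list's median was 0.04 and 1 gene was called lower. Of 23 genes of oxidative phosphorylation, limma called 0, with 1 higher and 0 lower at an unadjusted p under 0.05, and a median of −0.04. Of 21 genes of the cytosolic ribosome it called 0, with 0 at an unadjusted p under 0.05, and a median of 0.21.

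Of 14 genes of retinoid metabolism, 2 were called higher and 3 lower, beside 14.4% and 13.8% of all genes. Stra6, a retinol importer, read 6.85, 6.73 and 6.57 at P7 and 9.10, 9.51 and 7.49 at P14. It rose by 1.98 ± 0.33 (SE, adjusted p = 0.000332). Cyp26a1, which breaks down retinoic acid, fell by 1.78 ± 0.49 (SE, adjusted p = 0.0119), and Retsat rose by 0.87. Rdh11 fell by 0.47, with an adjusted p of 0.0811 with the replicate block. Of 16 immediate early genes, 2 were called in each direction (12.5%), near the shares of all genes. Atf3 rose by 1.52 ± 0.31 (SE, adjusted p = 0.00142) and Junb rose by 1.15, with an adjusted p of 0.0609 for Junb without P14 replicate 3. Egr2 fell by 2.33 ± 0.64 (SE, adjusted p = 0.0113) and Fos fell by 1.05, with an adjusted p of 0.12 for Fos with the block. Fos read 15.63, 15.37 and 15.52 at P7 and 13.92, 13.91 and 15.53 at P14, and P14 replicate 3 and 2 of the P7 arrays were saturated. Of 9 genes of the pigment epithelium, 1 was called lower (11.1%, beside 13.8% of all genes), Dct, which fell by 2.24 ± 0.53 (SE, adjusted p = 0.00416). Of 8 lens genes, 2 were called higher and 1 lower (25% and 12.5%, beside 14.4% and 13.8% of all genes). Crybb3 rose by 1.77 ± 0.39 (SE, adjusted p = 0.00262), Cryba4 rose by 1.04 and Cryba1 fell by 1.15. Cryba4 had an adjusted p of 0.112 with the block and 0.148 without P14 replicate 3. Rpe65 was found on none of the P7 arrays.

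The change from P7 to P14 was also set against that of cells captured on Glast from the same ages, with 3 arrays at P14 and 2 at P7. The difference between both changes was called for 1899 of 12612 genes (15.1%), with the change in Notch1+ cells above that in Glast+ cells for 888 and below it for 1011. The Glast+ arrays were scanned on another day, so the sort cannot be told apart from the scan day, although each change is taken within a sort. Among the genes chosen for this contrast, Nes rose by 1.58 in Notch1+ cells and gave −2.96 in Glast+ cells, a difference of 4.54 (adjusted p = 3.41e-06). Aqp4 gave 2.14 and 6.31, a difference of −4.18 (adjusted p = 6.81e-05), and Hes1 by 0.04 and 1.43, a difference of −1.38 (adjusted p = 0.0135). For Notch1 the difference was 0.54 (adjusted p = 0.219), for Hes5 −1.55 (adjusted p = 0.307) and for Glul −0.49 (adjusted p = 0.616). List medians of the change in Notch1+ and Glast+ cells were 2.53 and 2.27 for endothelium, 1.65 and 1.86 for interferon and 1.44 and 2.39 for microglia. For the barrier, pericyte and matrix lists they were 1.93 and 0.10, 2.34 and 0.42, and 1.99 and 0.27. The difference between both changes was called for 2 of 24 endothelial, 2 of 20 interferon, 5 of 17 microglial, 7 of 16 barrier, 5 of 12 pericyte and 7 of 19 matrix genes.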

How the data were processed

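Each sample was read on 1 array in a single channel at 635 nm. The authors deposited, per the file headers, the spot and local background intensity from GenePix Pro 4.1.1.4, scanned at a PMT gain of 650 and a pixel size of 5 µm, with no normalization. They also deposited a table of processed signal values, which match, on a linear scale, the background-subtracted median (no lower than 1) after each array was multiplied by its own factor; the software behind them is not given in the sources used here. Of 34312 transcript probes, 22987 had 1 gene symbol in the platform annotation and 11325 had none; these last are unnamed here.

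Spot medians were background-corrected with normexp (offset 50), quantile-normalized over the 21 arrays and put on the log2 scale in R 4.3.3 with limma 3.58.1. Probes were kept if the spot software had found them on all arrays of some group (25264), and a gene took the probe of highest mean intensity, whose level is not compared between genes. The model had 1 coefficient for each of the 8 groups with moderated variance (13 residual degrees of freedom before moderation), and p-values were adjusted over 12612 genes by the Benjamini-Hochberg method. The change in Glast+ cells was set against that in Notch1+ cells by an interaction contrast in the same model. Where a probe was found on no array of a group, or was saturated on all 3, the text gives a lower bound of the fold. That bound allows for the dim or capped values and leaves out the sampling error of the difference. Arrays have no read depth, and their number limits the precision. Both groups compared have 3 arrays, which the design text calls biological replicates.

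Samples sharing a replicate number deviated from their group means together (correlations of 0.301, 0.617 and 0.329, against −0.422 to 0.161 for other pairs), so a fit of the 6 arrays with the replicate number as a block was read as a paired analysis. Replicate 2 of both ages shares a scan day. Alternatives covered normalization, background, filters, probes, arrays in the fit, scan day and each array left out. The named genes were 12 set genes, the 12 genes per direction with the largest non-overlapping differences, and in each list up to 6 members of smallest adjusted p, up to 2 called against the majority and up to 3 not called of highest level. Others were named after their values were seen: those whose call ended with the block or without 1 array, those whose probes disagreed and those that complete a pathway. The members and gene lists were chosen with earlier results of these data known. Promoter windows are from RefSeq on GRCm38.p6 and matched 18 of 20 interferon list members by symbol. Results for some genes in the lists are not reported here, though their lists' counts and medians include them.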

Additional observations from a re-analysis of the deposited data

Results flagged for a closer look

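For 3 of the genes chosen for the contrast with Glast+ cells, the change from P7 to P14 differed between both sorts by limma's interaction test. For Aqp4 the change in Notch1+ cells minus that in Glast+ cells was −4.18 (adjusted p = 6.81e-05), with changes of 2.14 and 6.31 on the log2 scale. For Hes1 it was −1.38 (adjusted p = 0.0135), with changes of 0.04 and 1.43. For Nes it was 4.54 (adjusted p = 3.41e-06), with changes of 1.58 and −2.96, and a second Nes probe gave 0.27 in Notch1+ cells. The Glast+ arrays were scanned on another day, so the sort cannot be told apart from the scan day.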

How the results depend on the processing

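Of the 3548 genes called, all kept their direction in every alternative over the same genes except the mean of a gene's probes (3538), cyclic loess and the authors' processed values (3547 each), and the probes found on all 6 arrays (3131 of 3134 compared). With the 6 arrays alone, the replicate block or scan day as a block, the differences equal the main ones by design. Direction could not change there, and the genes were chosen as called on these same arrays. The number called ranged from 1205 (789 higher, 416 lower) with the 6 compared arrays alone to 4253 (2071 higher, 2182 lower) without P14 replicate 3. The fit of the 6 arrays has fewer degrees of freedom and also takes the spread from those arrays only. Arrays of scan day 2 alone gave 1682 (1100 higher, 582 lower), the replicate block 2390 (1403 higher, 987 lower), median scaling 3036, and a minimum of 2-fold 2088. Leaving out 1 array at a time gave 2543 to 4253 genes, 1434 to 2071 higher and 1109 to 2182 lower. Median scaling moved the median of all genes from −0.0189 to −0.116. Genes whose change differed from that in Glast+ cells numbered 786 with median scaling, and 972 to 3014 with 1 array left out, against 1899. Calls summed over the 40 lists were 104 with the 6 arrays alone and 132 on scan day 2. On the 6 arrays alone, limma called lower 2 photoreceptor transcription factors, 4 synaptic vesicle genes, 0 progenitor genes (11 at an unadjusted p under 0.05) and 4 neurogenic factors, and called higher 8 barrier, 2 microglial, 10 interferon and 9 matrix genes. With scan day 2 alone these were 2, 2, 0 (5 at an unadjusted p under 0.05) and 5 lower, and 7 barrier and 8 microglial genes higher. With the replicate block they were 4 photoreceptor factors, 2 synaptic vesicle genes, 3 progenitor genes lower and 2 microglial genes higher. Median scaling called 6 microglial genes higher. With 1 array left out, 4 to 7 photoreceptor factors, 5 to 10 synaptic vesicle genes, 8 to 13 progenitor genes and 7 to 13 neurogenic factors were called lower, and 8 to 16 microglial, 13 to 17 interferon, 13 to 15 matrix, 11 to 13 barrier and 20 to 22 endothelial genes higher. Of 187 named genes called, 84 were called in every alternative. Leaving out at least 1 of the 6 arrays ended the call of Adam17, Bub1b, Ccnd1, Cldn11, Cryba4, Ctbp2, Cyp26a1, Dner, Egr2, Elovl7, Fos, Gap43, Glul, Guca1b, Hba-a1, Hey1, Hk2, Junb, Mak, Notch1, Numb, Olig1, Pcp2, Pdpn, Pfkfb3, Prdm1, Prkca, Prom1, Rdh11, Retsat, Rfng, Rims2, Slc16a1, Slc16a3, Slc24a1, Sncg, Sox9, Sqle, Tk1, Tpi1 and Vsx1. The replicate block ended the calls of 48 named genes, made Esrrb, Irx5, B2m, Slc4a1, Hspa1a and Dusp1 pass, and changed no other call of a named gene. The alternative with scan day as a fixed term, chosen after seeing the data, called 4139 genes. The cause of these shifts was not tested. Signal over background limits the dim probes. On the 6 arrays 11.4% to 32.5% of all transcript probes were at or below background.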

Other observations

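Families of genes sharing a symbol prefix were counted after the values were seen, so their counts are descriptions with no test. The Sox factors went both ways, with 28.6% of 14 tested called higher and 42.9% lower, beside 14.4% and 13.8% of all genes. Of 14 tested, Sox17, Sox18, Sox7 and Sox13 rose, by 2.85, 2.64, 2.60 and 1.46, and Sox8, Sox2, Sox4, Sox9, Sox5 and Sox12 fell, by 2.25, 1.96, 1.74, 1.16, 0.97 and 0.89. The first 3 are known from endothelium, and Sox2, Sox8 and Sox9 from progenitors and glia. With the replicate block 3 rose and 3 fell, and with scan day 2 alone, or the 6 arrays alone, 3 were called higher and 0 lower. Of 13 intraflagellar transport genes, whose proteins carry cargo along cilia, 6 fell and 0 rose, against 13.8% lower among all genes, with a median of −0.68. They were Ift81, Ift46, Ift80, Ift27, Ift74 and Ift122, at −1.26 to −0.68, and Ift81 read 12.10, 11.66 and 12.04 at P7 and 10.88, 9.89 and 11.26 at P14. The median was −0.98 under median scaling and −0.53 under cyclic loess, which called 1 higher and 5 lower. Scan day 2 alone called 2 lower and the 6 arrays alone 1.

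Of 211 zinc finger genes named Zfp, 60 (28.4%) fell, against 13.8% of all genes, and 6 rose, with a median of −0.29. Median scaling called 54 lower and 4 higher, and cyclic loess 45 lower and 11 higher. The replicate block called 35 lower and 5 higher, scan day 2 alone 23 and 2, and the 6 arrays alone 12 and 2. Of 18 regulators of G protein signalling, 8 rose and 2 fell (44.4% and 11.1%, beside 14.4% and 13.8% of all genes). The rises were led by Rgs5, Rgs4 and Rgs3 at 3.79, 2.65 and 2.16. The family's median was 0.61, or 0.42 under median scaling.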
